A study of Mus musculus with 16 samples.

Results

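Undifferentiated spermatogonia of Spry4 germline-knockout mice were compared with those of wild-type mice in the vehicle arm of a study of the testis after busulfan. The comparison takes 8 of the 16 libraries, the 4 of each genotype that received vehicle, and was described across the 12907 of 16383 listed genes with at least 1 FPKM in 4 or more of the 16 libraries. FPKM expresses sequenced fragments relative to gene length and library size. All mice received busulfan at 10 mg/kg, an alkylating agent toxic to dividing germ cells. From day 3 they were injected daily for 7 days with vehicle, which was 10% DMSO in PBS, and cells were sorted by FACS at day 10 after busulfan. The wild-type libraries carry Spry4ff in their column names, and the knockout libraries, titled Spry4 G-KO, carry GCRT_Spry4KO. An effect of what GCRT names and the loss of Spry4 itself cannot be told apart. Which part of Spry4 the deletion removes, the mice's ages and the surface markers of the sort are not stated in the labels. Nothing there says that replicates are separate animals, and p-values therefore measure only the spread between these libraries. The other 8 libraries, the same genotypes given the MEK inhibitor PD0325901 at 2.5 mg/kg in place of vehicle, share no library with this comparison, and their own knockout minus wild-type values are set beside it.

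Sprouty proteins are feedback inhibitors of receptor tyrosine kinases. Signalling through RAS, RAF, MEK and ERK induces their transcription, and the proteins then dampen that signalling. In undifferentiated spermatogonia, GDNF from somatic cells acts through the receptors GFRA1 and RET to sustain stem cell self-renewal, and FGFs act through their own receptors. ETV5 and DUSP6 are among the genes commonly read as output of ERK in these cells. The comparison asks whether these outputs, and the stem cell and differentiation genes of the surviving cells, differ when the germline lacks Spry4.

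The libraries carried 12280 to 12805 genes at 1 FPKM or more. Low FPKM values stood at whole numbers of reads when multiplied by exon length and by a library-size divisor, by which 1 FPKM was worth about 23.4 to 36.3 reads per kilobase of exon. Zbtb16, the transcription factor that marks undifferentiated spermatogonia, was at 103 to 121 FPKM in wild-type and 103 to 122 FPKM in knockout libraries. The germ cell RNA helicase Ddx4 ran from 68.8 to 134 FPKM over the 8 libraries, and Kit, the receptor of differentiating spermatogonia, from 1.46 to 3.29 FPKM. Transcripts of contractile cells were also abundant and differed widely between libraries of both genotypes. The knockout library KO_vehicle 3 stood apart from the rest. Its correlation with other vehicle libraries across genes was 0.881 to 0.941, against 0.956 to 0.985 among the other 7, and it held spermatid transcripts such as the protamine Prm1 at 739 FPKM, where the other vehicle libraries held 0.750 to 19.0 FPKM. Single libraries are named by genotype and replicate number.

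**Figure D1:**
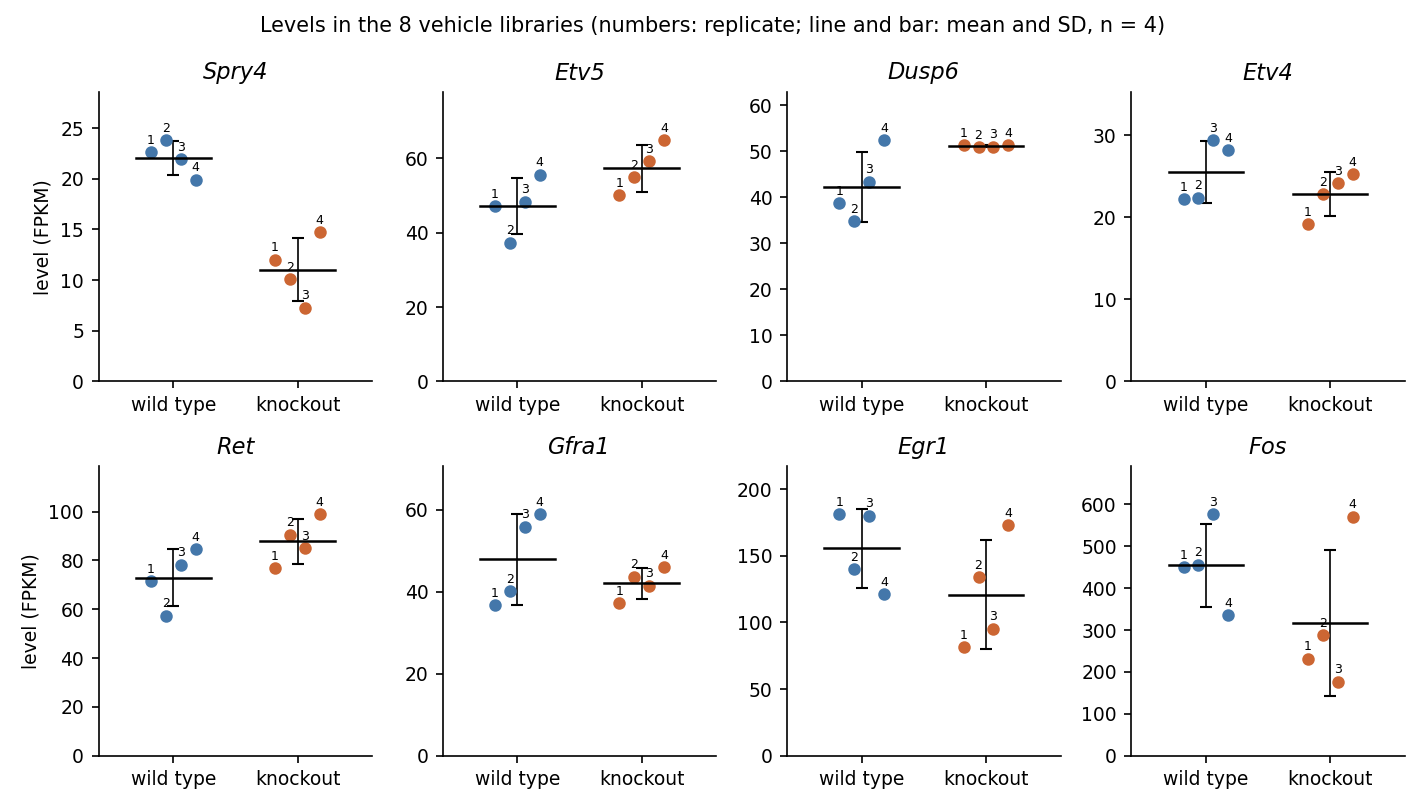
Levels in FPKM (vertical axes, from 0) of 8 genes in the 4 wild-type and the 4 knockout vehicle libraries, each point 1 library with its replicate number, the line the mean and the bar 1 SD. Spry4 separates the genotypes (wild type 19.9 to 23.8, knockout 7.28 to 14.7), and the other 7 genes overlap.

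Spry4 transcript was lower in every knockout library, and was still measured in all of them. Spry4 (ENSMUSG00000024427, GRCm38 chromosome 18, 38586247 to 38601415, minus strand) stood at 22.6, 23.8, 21.9 and 19.9 FPKM in wild type and at 12, 10.1, 7.28 and 14.7 FPKM in the knockout. The highest knockout library lay below the lowest wild-type library. The knockout mean was 49.9% of wild type, 11 ± 3.13 against 22.1 ± 1.66 FPKM (SD, n = 4). On the log2(FPKM + 0.5) scale used for all differences here, this was -1.01 (SE 0.24, 95% interval -1.52 to -0.50), with a two-sided exact permutation p of 0.0286, the smallest that 4 against 4 libraries can give. FPKM counts reads over the whole gene, so reads from exons that the deletion leaves in place would be counted. With WT_vehicle 1, 2 or 3 left out the difference was -1, -0.97 and -1.01, with an exact permutation p of 0.0571 each.

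Within the knockout, Spry4 had the same order over the libraries as the summed level of 11 transcripts of peritubular myoid and smooth muscle cells. That sum was 4520, 2430, 1400 and 7250 FPKM in KO_vehicle 1 to 4, and 2530, 6890, 7880 and 5070 FPKM in WT_vehicle 1 to 4. Within wild type the orders differed: WT_vehicle 1, with the lowest sum, held Spry4 at 22.6 FPKM, above WT_vehicle 3 and WT_vehicle 4. With the mean levels of this list and of the spermatid list as terms in the fit, the Spry4 difference was -0.87. In bulk libraries, fewer cells of a type and less RNA per cell cannot be told apart. Around Spry4, 27 other genes within 2 Mb were tested. None reached an unadjusted p under 0.05 and none separated the genotypes. Their median difference was -0.07, from -0.78 for Fgf1 to 0.48 for Pcdh12. Over all of chromosome 18, Spry4 included, 12 of 293 tested genes (4.1%) had an unadjusted limma p under 0.05. That was the largest share of any chromosome, where 1.94% of all genes did. On this chromosome 9 of the 293 did not overlap, where 1.46% of all genes did not. Sec11c and Crem, named below, are among both. The reason was not tested.

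No gene passed the threshold in the comparison across all genes. With limma and Benjamini-Hochberg adjustment over 12907 genes, 0 genes (0%) had an adjusted p under 0.05, and the smallest adjusted p was 0.9998. At an unadjusted p under 0.05 there were 251 genes (1.94% of those tested), 158 of them higher in the knockout (1.22%) and 93 lower (0.721%). Evenly spread p-values would place 645 genes there. The count was 117 (64 higher, 53 lower) without WT_vehicle 2, 391 without WT_vehicle 1 and 380 without KO_vehicle 1. Within library numbers 440 to 447 of the column names, the balance turned to 112 higher and 266 lower, and within 448 to 455 it was 201 higher and 60 lower. Libraries of the genotypes did not overlap for 189 genes (1.46%), 104 higher (0.806%) and 85 lower (0.659%). By sign alone, 6088 genes were higher (47.2%) and 6819 lower (52.8%).

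The fit put narrow bounds on most genes. The median SE was 0.146 on the log2 scale, and the middle of the differences lay between quartiles of -0.10 and 0.07. For 11425 genes (88.5%) the 95% interval of the difference lay within a 2-fold change of FPKM + 0.5 in either direction. For 71.1% it lay within 1.5-fold on that scale. For those genes a larger difference on that scale between these sets of libraries lies outside the interval. For scarce genes the change in FPKM itself can be larger. Mfsd4a, with an interval of -0.93 to -0.28, had a knockout mean at 47.6% of wild type.

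**Figure D2:**
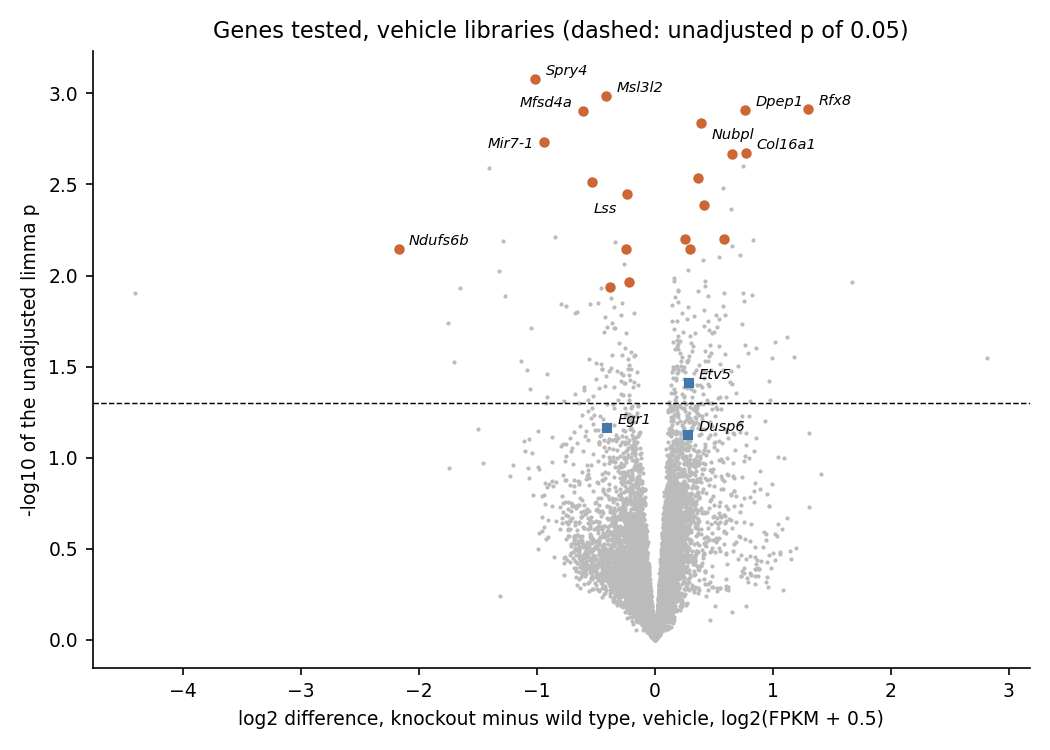
Each point is 1 of the 12907 genes tested, with the knockout minus wild-type log2 difference under vehicle on the horizontal axis and -log10 of the unadjusted limma p on the vertical axis. Orange points are 20 genes whose libraries did not overlap between the genotypes, 10 in each direction with the smallest p, blue squares are Etv5, Dusp6 and Egr1, and the dashed line is an unadjusted p of 0.05; no gene passed after adjustment.

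Genes transcribed in response to ERK lay on both sides of 0. Of 18 listed outputs, 10 were higher by sign and 8 lower, with a median difference of 0.03 beside -0.01 over all genes, and the middle members spread from -0.15 to 0.20. None passed the adjusted threshold, and 1 of 18, Etv5, had an unadjusted p under 0.05, where 1.94% of all genes did.

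Etv5 (ENSMUSG00000013089, chromosome 16, 22381309 to 22439719, minus strand), the ETS factor that maintains spermatogonial stem cells, was at 47.2, 37.3, 48.4 and 55.6 FPKM in wild type and at 50.2, 55.0, 59.3 and 64.9 FPKM in the knockout. The upper wild-type libraries overlapped the lower knockout ones. Its log2 difference was 0.29 (SE 0.13, 95% interval 0.02 to 0.56), and in the inhibitor-treated libraries it was 0.28. Dusp6 (ENSMUSG00000019960, chromosome 10, 99263231 to 99267489, plus strand), the cytoplasmic phosphatase of ERK, was at 38.7, 34.8, 43.4 and 52.4 FPKM in wild type. In the knockout it was at 51.3, 50.9, 51.0 and 51.3 FPKM. The knockout libraries lay between 50.9 and 51.3 FPKM, and only WT_vehicle 4 was as high. The difference was 0.29 (SE 0.15, 95% interval -0.03 to 0.60) under vehicle and 0.22 under inhibitor.

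Etv4, the other abundant factor of the same ETS group, was at 22.2, 22.4, 29.4 and 28.2 FPKM in wild type and at 19.2, 22.8, 24.2 and 25.3 FPKM in the knockout. Under vehicle the difference was -0.15 (SE 0.14), opposite in sign to Etv5. Under inhibitor it was 0.41 (SE 0.14), the same sign as Etv5. Etv1 was near 1 FPKM in both (-0.14, SE 0.32). Among the phosphatases, nuclear Dusp4 was 0.15 (SE 0.21), Dusp5 -0.10 (SE 0.25) and cytoplasmic Dusp7 0.16 (SE 0.11). Of the remaining outputs, the Ephrin receptor Epha2 was at 21.0 ± 2.27 FPKM in wild-type and 24.4 ± 3.19 FPKM in knockout libraries (SD, n = 4). Phlda1 differed by 0.28 (SE 0.27), Ccnd1, encoding cyclin D1, by -0.15 (SE 0.21), Ier3 by -0.31 (SE 0.47), Fosl1 by -0.07 (SE 0.15), Epha4 by 0.01 (SE 0.37) and Myc by -0.37 (SE 0.50). Under vehicle, every one of these intervals included 0.

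The inhibitors related to Spry4 differed between genotypes by less than the spread between libraries. Of 6 tested Sprouty and Spred genes, 4 were higher by sign and 2 lower, Spry4 being 1 of these, and the median was 0.08. Spry1 was at 34.8, 20.8, 25.2 and 20.1 FPKM in wild type and at 35.4, 27.4, 18.1 and 41.1 FPKM in the knockout (0.24, SE 0.29). Spry2 was at 42.7, 44.4, 37.4 and 27.0 FPKM and at 25.3, 33.9, 21.2 and 49.9 FPKM (-0.26, SE 0.37). Both spread widely among knockout libraries, with KO_vehicle 4 highest and KO_vehicle 3 lowest for each. The Spred proteins, which block RAF activation at the membrane, were closer together: Spred1 differed by 0.09 (SE 0.13), Spred2 by 0.06 (SE 0.08) and the scarce Spred3 by 0.18 (SE 0.19). For Spred2 the 95% interval ran from -0.10 to 0.23.

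The adaptors, GTPases and kinases between receptor and ERK lay close to the median of all genes. Of 20 core genes, 8 were higher and 12 lower, with a median of -0.01 and members from -0.23 to 0.18. None had an unadjusted p under 0.05. The 18 receptor tyrosine kinase and GDNF receptor genes were 9 higher and 9 lower (median -0.02), and the 20 genes of PI3K, AKT and mTOR were 10 and 10 (median 0.00). In that last list Ddit4, an inhibitor of mTOR complex 1 induced by stress, was at 70.6, 79.3, 66.9 and 61.2 FPKM in wild type and at 38.3, 47.2, 37.2 and 70.8 FPKM in the knockout (-0.56, SE 0.27, 95% interval -1.14 to 0.02). Only KO_vehicle 4 reached the wild-type range.

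Stem cell genes stood slightly higher in the knockout by sign, without a gene past the adjusted threshold. Of 17 tested members, 13 were higher and 4 lower, with a median of 0.15 and quartiles of 0.03 and 0.27; over all genes the quartiles were -0.10 and 0.07. At an unadjusted p under 0.05 there were 2 members, both higher, Shisa6 and Etv5 (1.22% of all genes were higher at that p). In the inhibitor-treated libraries 15 of the 17 were higher, with a median of 0.25. Leaving out single vehicle libraries moved the median between 0.08 and 0.27.

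Ret (ENSMUSG00000030110, chromosome 6, 118151745 to 118197718, minus strand), the signalling receptor for GDNF, was at 71.5, 57.3, 78.3 and 84.6 FPKM in wild type and at 76.7, 90.6, 85.0 and 98.8 FPKM in the knockout. Its difference was 0.27 (SE 0.13, 95% interval -0.01 to 0.56), with the groups overlapping, and 0.22 under inhibitor. Gfra1, the co-receptor that binds GDNF, went the other way by sign, at 36.7, 40.2, 55.9 and 58.9 FPKM in wild type and at 37.2, 43.7, 41.5 and 46.0 FPKM in the knockout (-0.16, SE 0.16). The 2 wild-type libraries above 50 FPKM exceeded every knockout library, and the other 2 did not. Shisa6, a membrane protein marking stem-like cells, was scarce, at 0.862, 0.534, 0.653 and 1.44 FPKM in wild type and at 1.07, 1.17, 1.37 and 2.28 FPKM in the knockout (0.53, SE 0.20, 95% interval 0.10 to 0.96). Tcl1, a co-activator of AKT, was at 31.2 ± 5.77 FPKM in wild type and at 40.4 ± 8.35 FPKM in the knockout (SD, n = 4; 0.36, SE 0.19). The RNA-binding repressor Nanos2 differed by -0.17 (SE 0.16) and Id4, a helix-loop-helix inhibitor enriched in stem cells, by 0.12 (SE 0.08).

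**Figure D3:**
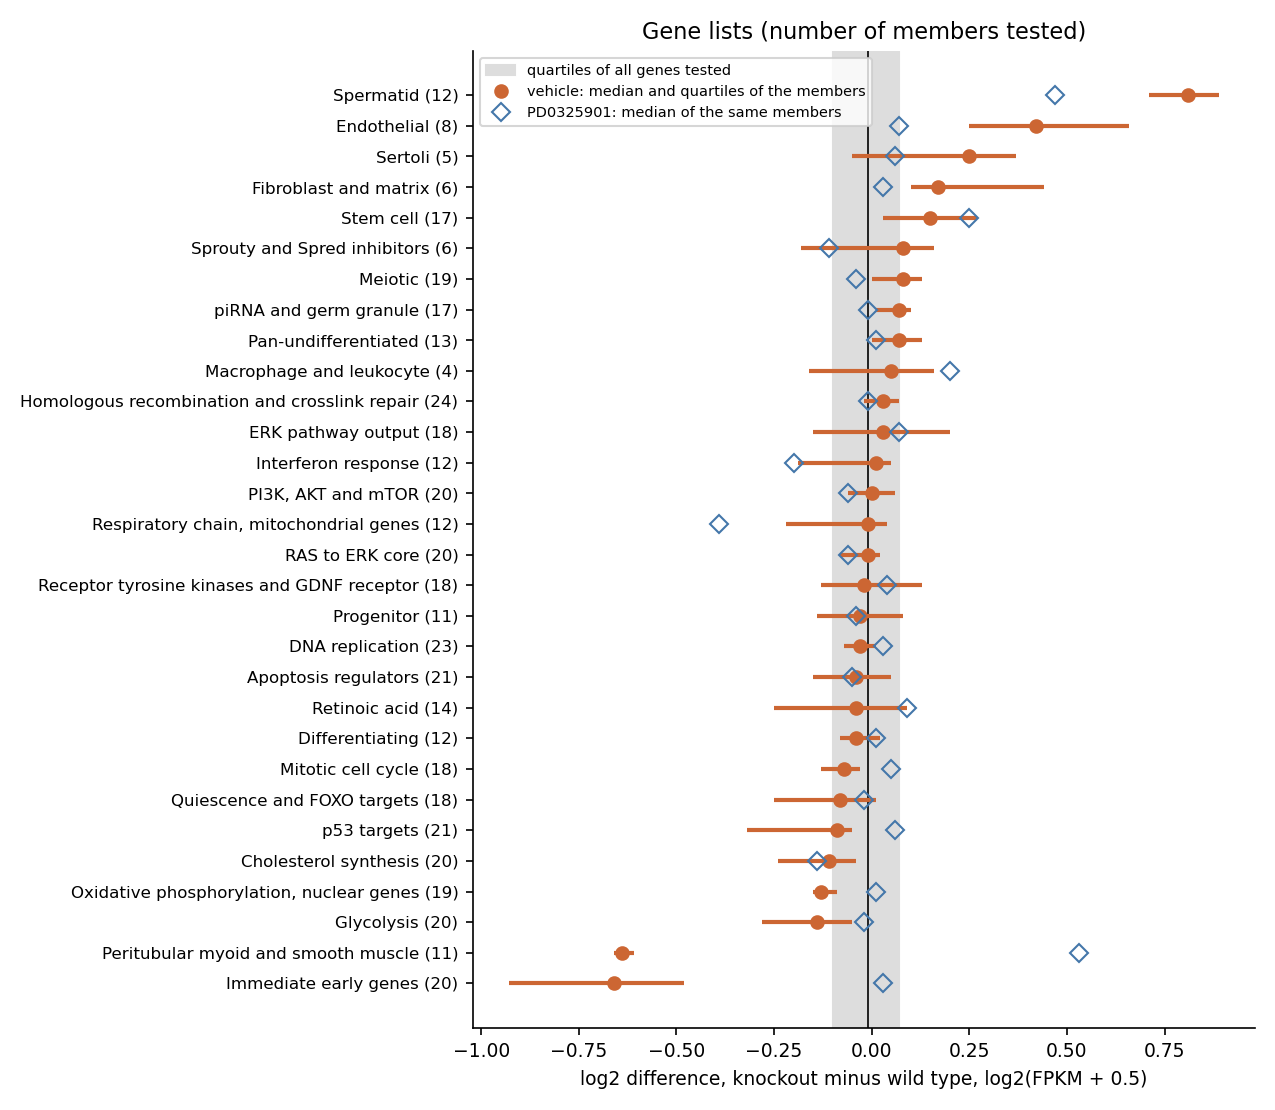
Median knockout minus wild-type log2 difference of each gene list (horizontal axis) under vehicle, as orange points with bars between the quartiles of the members, and under PD0325901 as open blue diamonds; the number of members tested is in brackets and the grey band holds the quartiles of all genes. Immediate early and peritubular lists lie lowest under vehicle (-0.66 and -0.64) and at 0.03 and 0.53 under the inhibitor, while the stem cell list lies at 0.15 and 0.25.

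Later germ cell stages showed no shift shared by their markers. The 11 progenitor genes had a median of -0.03 and the 12 differentiating genes one of -0.04, with 4 higher by sign in each and none at an unadjusted p under 0.05. Neurog3, a progenitor transcription factor, was at 4.17, 4.27, 2.96 and 3.25 FPKM in wild type and at 6.62, 4.01, 3.83 and 2.27 FPKM in the knockout (0.10, SE 0.28). Sox3 differed by -0.03 (SE 0.17) and Kit by -0.07 (SE 0.23). Stra8, a retinoic acid target of differentiating and premeiotic cells, was at 28.6, 31.8, 23.7 and 20.2 FPKM in wild type. Its knockout libraries stood at 15.3, 19.8, 30.3 and 10.3 FPKM (-0.54, SE 0.26, 95% interval -1.10 to 0.03). Its highest knockout value was in KO_vehicle 3, the library rich in spermatid transcripts. The retinoic acid list of 14 tested genes was at -0.04 in the median. Cyp26a1, which degrades retinoic acid, was at 2.82, 2.68, 3.03 and 2.80 FPKM in wild type and at 1.26, 2.04, 2.62 and 2.19 FPKM in the knockout, without overlap (-0.43, SE 0.16, 95% interval -0.78 to -0.08), and at 0.27 under inhibitor.

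Among the 13 pan-undifferentiated genes, 8 were higher and 5 lower with a median of 0.07. Zbtb16 differed by 0.00 (SE 0.11, 95% interval -0.24 to 0.23). Adgra3, also known as Gpr125, a surface receptor of undifferentiated cells, was the member at an unadjusted p under 0.05 (0.29, SE 0.12; 1.94% of all genes). Meiotic genes (19 tested) and piRNA and germ granule genes (17 tested) had medians of 0.08 and 0.07. Without KO_vehicle 3 these were -0.11 and -0.02. Piwil1, the piRNA-binding protein of later germ cells, was at 18.4 FPKM in KO_vehicle 3 and at 5.43 to 6.13 FPKM in the other knockout libraries, and its difference of 0.57 was 0.17 without that library.

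Immediate early genes, which are transcribed within minutes of a stimulus, were lower by sign in the knockout, with no member past the adjusted threshold. Of 20 tested members, 18 were lower and 2 higher, with a median of -0.66 and quartiles of -0.93 and -0.48. Of all genes, 52.8% were lower. At an unadjusted p under 0.05 there were 2 members, Btg2 and Fosb, both lower (0.721% of all genes were lower at that p), and no member separated the genotypes.

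The knockout libraries disagreed among themselves for these genes. Fos, a subunit of AP-1, was at 450, 456, 576 and 335 FPKM in wild type and at 232, 287, 177 and 571 FPKM in the knockout (-0.64, SE 0.41). Egr1, a zinc finger factor induced by ERK, was at 181, 140, 180 and 121 FPKM in wild type and at 81.6, 134, 95.2 and 173 FPKM in the knockout (-0.40, SE 0.20). In both, KO_vehicle 4 lay among or near the highest wild-type libraries and KO_vehicle 1 and 3 were low. Fosb, another AP-1 subunit, was at 204, 140, 174 and 113 FPKM in wild type and at 46.0, 86.8, 59.1 and 189 FPKM in the knockout (-0.91, SE 0.39, 95% interval -1.74 to -0.08). Btg2, an antiproliferative target of p53 and of growth factors, was at 260, 320, 374 and 192 FPKM in wild type and at 97.5, 129, 76.1 and 310 FPKM in the knockout (-1.08, SE 0.46, 95% interval -2.06 to -0.10). Dusp1, the immediate early phosphatase of MAP kinases, differed by -0.59 (SE 0.31), with KO_vehicle 4 at 107 FPKM and the other knockout libraries at 39.6 to 49.6 FPKM.

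The list median rested on which knockout libraries were used. It was -1.03 without KO_vehicle 4 and -0.43 without KO_vehicle 3. The knockout library with the highest immediate early levels was also the one with the highest peritubular sum, 7250 FPKM. The other libraries kept this order for some genes and not for others. Dusp1, at 49.6, 46.2, 39.6 and 107 FPKM in KO_vehicle 1 to 4, had the order of the knockout sums. Fos and Btg2 were lowest in KO_vehicle 3, which had the lowest sum, 1400 FPKM. KO_vehicle 1, with the next knockout sum of 4520 FPKM, had the lowest knockout Egr1 and Fosb. WT_vehicle 1, with the lowest wild-type sum of 2530 FPKM, had the highest wild-type Egr1 and Fosb. Wild-type Fos was highest in WT_vehicle 3, which had the highest sum, 7880 FPKM. Whether these cells contributed to the immediate early levels was not tested. With terms for the peritubular and spermatid means the list median was -0.38. In the inhibitor-treated libraries, 12 of the 20 genes were higher in the knockout and 8 lower, with a median of 0.03. Klf2, from the list of quiescence and FOXO targets, had the same high library, at 153 FPKM in KO_vehicle 4 and 31.3 to 42.3 FPKM in the other knockout libraries (-0.98, SE 0.51).

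The start region of Fos is shown as an abundant immediate early gene, and that of Dusp6 as an ERK output whose knockout libraries lay close together. Both are the 250 bases before the annotated start in RefSeq on GRCm38.p6, plus strand, at chr12:85473640-85473889 and chr10:99262981-99263230. Capitals mark TGACG, the core of the cyclic AMP response element, in Fos, and GGAA, the core bound by ETS factors, in Dusp6, each on either strand.
Fos: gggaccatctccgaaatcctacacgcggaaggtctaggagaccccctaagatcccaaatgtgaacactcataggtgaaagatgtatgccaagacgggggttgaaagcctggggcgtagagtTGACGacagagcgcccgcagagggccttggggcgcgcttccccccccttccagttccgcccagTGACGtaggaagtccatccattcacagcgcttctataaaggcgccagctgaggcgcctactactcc
Dusp6: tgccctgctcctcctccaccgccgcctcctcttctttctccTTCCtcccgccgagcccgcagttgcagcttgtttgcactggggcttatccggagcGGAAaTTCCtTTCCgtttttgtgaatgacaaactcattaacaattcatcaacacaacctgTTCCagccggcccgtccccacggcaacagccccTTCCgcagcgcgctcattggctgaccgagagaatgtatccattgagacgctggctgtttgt
The Fos stretch holds 2 matches to TGACG, and 20.8% of 32851 RefSeq promoters in windows of 300 bases hold at least 1. The Dusp6 stretch holds 6 matches to GGAA, a motif in 96.0% of promoters. Etv5, searched in the same way but not shown, had 0 matches to GGAA in window 1 and 6 in window 2. For Egr1 no promoter window was available. The CArG box, the site of serum response factor, had no match in the windows of Fos, Dusp6 or Etv5 and is in 1.63% of promoters. Bases outside these windows of 300 bases were not searched, so a site farther from the start would be missed. These are matches of letters only.

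The 10 higher genes with the smallest p among those whose libraries did not overlap were Rfx8, Dpep1, Nubpl, Col16a1, Coa4, Fut10, Chi3l1, Vav3, Tspan5 and Glb1. Rfx8 (ENSMUSG00000057173, chromosome 1, 39665301 to 39720997, minus strand), a gene of the RFX transcription factor family, was at 1.29, 0.520, 0.745 and 1.02 FPKM in wild type and at 2.63, 2.44, 3.66 and 2.85 FPKM in the knockout (1.30, SE 0.32, 95% interval 0.61 to 2.0). Its lowest knockout library was above its highest wild-type one, and under inhibitor the difference was -0.52. Nubpl (ENSMUSG00000035142, chromosome 12, 52097737 to 52312744, plus strand), an assembly factor of respiratory complex I, was at 1.24, 1.05, 1.39 and 1.17 FPKM in wild type and at 1.51, 1.76, 1.77 and 1.95 FPKM in the knockout (0.39, SE 0.10, 95% interval 0.18 to 0.60). It also separated the genotypes under inhibitor, where the difference was 0.20.

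The rest of the 10 were small differences or low levels. The dipeptidase gene Dpep1 and the collagen gene Col16a1 each differed by 0.77, from 0.662 to 1.43 FPKM and from 1.34 to 2.61 FPKM in the mean. Coa4, for assembly of cytochrome oxidase, differed by 0.65 and Vav3, a guanine nucleotide exchange factor, by 0.59, both at 2.72 FPKM or less in every vehicle library. Better measured were the fucosyltransferase gene Fut10, at 5.75 to 7.51 FPKM in wild-type and 7.94 to 9.64 FPKM in knockout libraries (0.37, SE 0.10), and Glb1, lysosomal beta-galactosidase, at 7.57 to 7.93 FPKM and 9.02 to 11.2 FPKM (0.30, SE 0.10). Chi3l1 differed by 0.42 (SE 0.12) and the tetraspanin Tspan5 by 0.26 (SE 0.08).

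The 10 lower genes were Spry4, Msl3l2, Mfsd4a, Mir7-1, Snhg15, Lss, Tirap, Ndufs6b, Cyb5d1 and Snhg12. Msl3l2, related to a subunit of a histone acetyltransferase complex, was at 6.89, 8.40, 8.66 and 7.99 FPKM in wild type and at 6.23, 4.88, 6.73 and 5.79 FPKM in the knockout (-0.41, SE 0.10, 95% interval -0.62 to -0.20). Under inhibitor it was 0.15. Lss (ENSMUSG00000033105, chromosome 10, 76531588 to 76557138, plus strand), lanosterol synthase of the cholesterol pathway, was at 7.88, 7.83, 8.57 and 6.96 FPKM in wild type and at 6.31, 6.96, 6.56 and 6.43 FPKM in the knockout (-0.23, SE 0.07, 95% interval -0.37 to -0.09). The closest libraries, WT_vehicle 4 and KO_vehicle 2, both round to 6.96 FPKM. Lss also separated the genotypes under inhibitor, at -0.15.

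Snhg15 was at 5.73 to 7.67 FPKM in wild-type and 3.40 to 5.11 FPKM in knockout libraries (-0.53, SE 0.15), and Snhg12 at 6.97 to 7.93 FPKM and 4.23 to 6.95 FPKM (-0.38, SE 0.13); both are spliced hosts of small nucleolar RNAs. The microRNA gene Mir7-1 (chromosome 13, 58392779 to 58392886, minus strand) was at 5.46, 6.74, 4.66 and 6.64 FPKM in wild type and at 2.93, 2.62, 4.08 and 1.93 FPKM in the knockout (-0.93, SE 0.24). It lies inside Hnrnpk on the same strand, and Hnrnpk itself differed by -0.10 (SE 0.07). Whether these reads of a polyA library belong to the host was not tested, and they say nothing of the mature microRNA. Ndufs6b is annotated as a processed pseudogene, whose reads can be shared with its parent gene. It was at 2.35, 4.43, 6.99 and 3.56 FPKM in wild type and at 0.101, 1.86, 0.317 and 0.400 FPKM in the knockout (-2.17, SE 0.69), and at 0.88 under inhibitor. Mfsd4a, at 1.05 FPKM or less in every vehicle library, differed by -0.61 (SE 0.15) and by 0.37 under inhibitor; Tirap, a Toll-like receptor adaptor, by -0.24 (SE 0.08) and Cyb5d1 by -0.22 (SE 0.08).

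**Figure D4:**
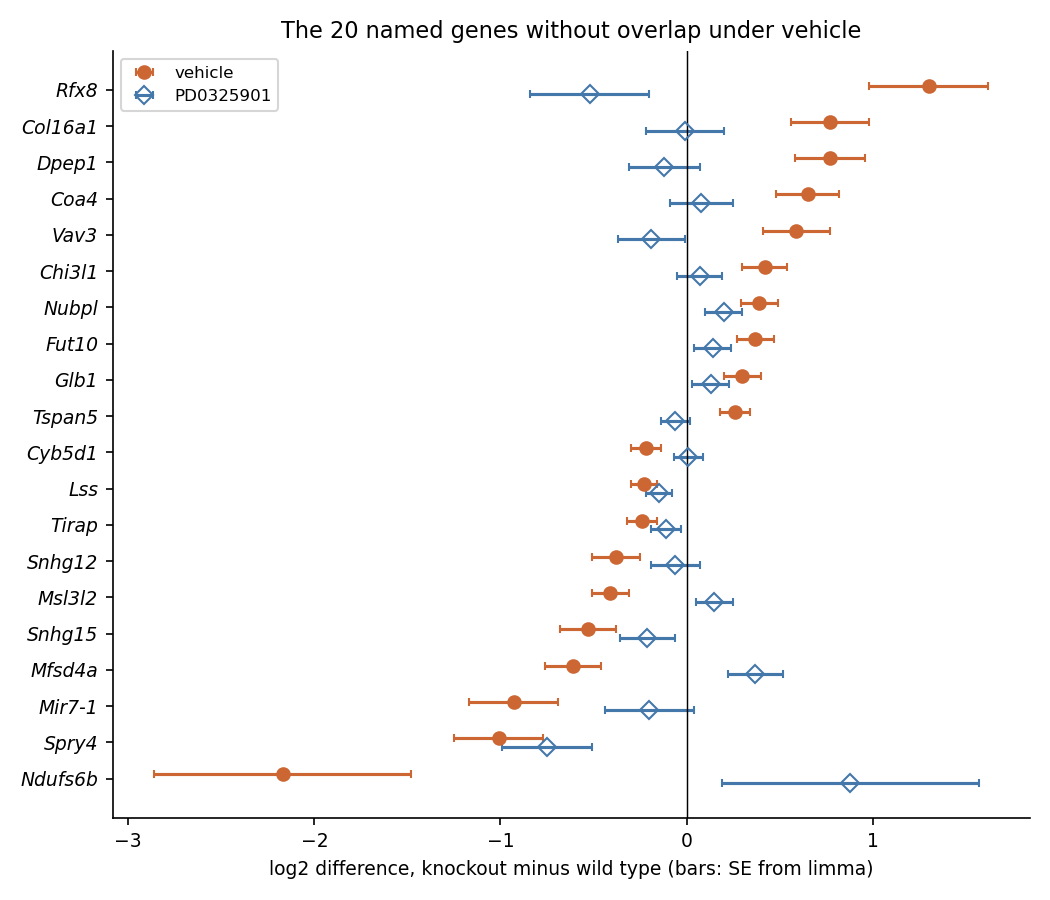
Knockout minus wild-type log2 difference (horizontal axis) of the 20 genes with the smallest p among those not overlapping under vehicle, with vehicle as filled orange points and PD0325901 as open blue diamonds; bars are the SE from limma. Under the inhibitor 11 of the 20 have the same sign, and Nubpl and Lss are the 2 that again do not overlap on the same side.

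The genes that separated the genotypes under vehicle mostly did not do so in the inhibitor-treated libraries. There, 0 genes (0%) passed the adjusted threshold, 605 (4.69%) had an unadjusted limma p under 0.05 and 294 (2.28%) did not overlap. Of the 189 genes that separated the vehicle libraries, 112 (59.3%) had the same sign under inhibitor, where 52.9% of all tested genes did. Their median absolute difference was 0.23 under vehicle, by which they were chosen, and 0.09 under inhibitor. On the same side in both treatments and without overlap stood 5 genes. Sema4b, a semaphorin, was higher (0.24 and 0.22) with Nubpl. Lower were Lss, Sec11c, a subunit of the signal peptidase (-0.28 and -0.28), and Apoo, a mitochondrial inner membrane protein (-0.37 and -0.33). These 5 were picked by their values in both treatments.

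Among metabolic lists, those of cholesterol synthesis, nuclear oxidative phosphorylation genes and glycolysis had more members lower than higher by sign, with small differences. The 12 tested genes of the mitochondrial genome were 6 higher and 6 lower (median -0.01). Under inhibitor these mitochondrial genes were 0 higher and 12 lower (median -0.39). Cholesterol synthesis genes were lower in 17 of 20 members, where 52.8% of all genes were, with a median of -0.11, and lower in 20 of 20 under inhibitor, with a median of -0.14. Lss, Fdps and Mvk were the 3 with an unadjusted p under 0.05, all lower (0.721% of all genes). Fdps, farnesyl diphosphate synthase, was at 2.02, 1.76, 2.02 and 1.67 FPKM in wild type and at 1.21, 1.59, 1.46 and 1.22 FPKM in the knockout, without overlap (-0.34, SE 0.12). Mvk, mevalonate kinase, was at 7.70, 7.31, 8.72 and 6.97 FPKM and at 5.92, 6.61, 5.94 and 7.12 FPKM (-0.25, SE 0.09). The list median ranged from -0.19 without WT_vehicle 4 to -0.03 without KO_vehicle 1.

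Nuclear genes of oxidative phosphorylation were lower in 19 of 19 tested members, with a median of -0.13 and none at an unadjusted p under 0.05. That list was at 0.01 under inhibitor, and at -0.03 under vehicle with the peritubular and spermatid terms. Glycolysis genes were lower in 16 of 20 (median -0.14; -0.06 with those terms). Members of one pathway vary together, so counts of signs within a list are not counts of independent genes.

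Cell cycle and damage lists had medians between -0.09 and 0.03. Mitotic genes were lower in 16 of 18 with a median of -0.07, where 52.8% of all genes were lower. DNA replication genes were lower in 16 of 23 with -0.03. None of either list had an unadjusted p under 0.05. Under inhibitor, 13 of the 18 mitotic and 16 of the 23 replication genes were higher, with medians of 0.05 and 0.03. Mki67, the proliferation antigen, was at 33.3, 38.0, 32.1 and 40.9 FPKM in wild type and at 25.4, 37.8, 38.0 and 29.2 FPKM in the knockout (-0.16, SE 0.15). The list of p53 targets was lower in 18 of 21, with a median of -0.09 and quartiles of -0.32 and -0.05. Under inhibitor 12 of the 21 were higher, with a median of 0.06. Under vehicle 1 member of this list, the DNA damage sensor Xpc, was higher at an unadjusted p under 0.05 (0.20, SE 0.08), where 1.22% of all genes were. Cdkn1a, the cell cycle inhibitor p21, was at 8.99, 18.4, 17.6 and 13.9 FPKM in wild type and at 6.16, 7.41, 6.90 and 18.5 FPKM in the knockout (-0.66, SE 0.48). KO_vehicle 4 was above every wild-type library and the other 3 knockout libraries below them all. Repair genes for crosslinks and homologous recombination had a median of 0.03 over 24 members, and apoptosis regulators one of -0.04 over 21. In the latter Casp9, the initiator caspase, did not overlap, at 17.6 to 19.9 FPKM in wild-type and 20.2 to 21.6 FPKM in knockout libraries (0.12, SE 0.08). Of all genes, 0.806% were higher in the knockout without overlap. The interferon response list was at 0.01 over 12 members, and quiescence and FOXO targets at -0.08 over 18.

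Transcripts of other cells differed between libraries more than between genotypes. Peritubular transcripts summed to 2530 to 7880 FPKM in wild-type and 1400 to 7250 FPKM in knockout libraries (exact permutation p = 0.286), all 11 listed markers being in the table; Acta2 alone reached 3150 FPKM. By sign 10 of the 11 were lower in the knockout, with a median of -0.64, which was -1.03 without KO_vehicle 4 and -0.24 without KO_vehicle 3. Spermatid transcripts summed to 13.8 to 110 FPKM and 16.4 to 3270 FPKM (exact permutation p = 0.743). Their list median of 0.81 was -0.60 without KO_vehicle 3.

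Endothelial genes were higher in 7 of 8 tested members, with a median of 0.42, and 3 of them, Cdh5, Kdr and Egfl7, had an unadjusted p under 0.05 (1.22% of all genes were higher at that p). Cdh5, the junction protein VE-cadherin, was at 1.54, 1.53, 1.98 and 2.58 FPKM in wild type and at 1.88, 2.92, 6.62 and 4 FPKM in the knockout (0.76, SE 0.27, 95% interval 0.18 to 1.34). Kdr, a VEGF receptor, differed by 0.46 (SE 0.19) and Egfl7, an endothelial matrix protein, by 0.39 (SE 0.18). KO_vehicle 3 was highest for all 3, and without it their differences were 0.48, 0.28 and 0.15. The summed level of the 11 listed endothelial genes was 28.9 to 39.0 FPKM in wild-type and 27.7 to 50.9 FPKM in knockout libraries (exact permutation p = 0.286). Fibroblast and matrix genes were higher in 6 of 6, with a median of 0.17; Col3a1, a fibrillar collagen, was at 3.96, 2.17, 1.58 and 1.71 FPKM in wild type and at 11.9, 5.35, 2.57 and 6.01 FPKM in the knockout (1.18, SE 0.48). Sertoli, Leydig, and macrophage and leukocyte lists summed to at most 26.1, 20.1 and 17.5 FPKM in any vehicle library, and erythrocyte genes to at most 8.10 FPKM. Values were given for only 10 of 14 Sertoli, 3 of 9 Leydig, 12 of 13 macrophage and leukocyte and 2 of 7 erythrocyte markers. These sums therefore leave out the other markers and do not measure how few such cells there were. The part of these cells in the genotype differences was examined only by the fit with the peritubular and spermatid terms. In it 0 genes passed the adjusted threshold, as in the fit without the terms, so this count cannot show that part. At an unadjusted limma p under 0.05 there were 504 genes with the terms and 251 without.

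**Figure D5:**
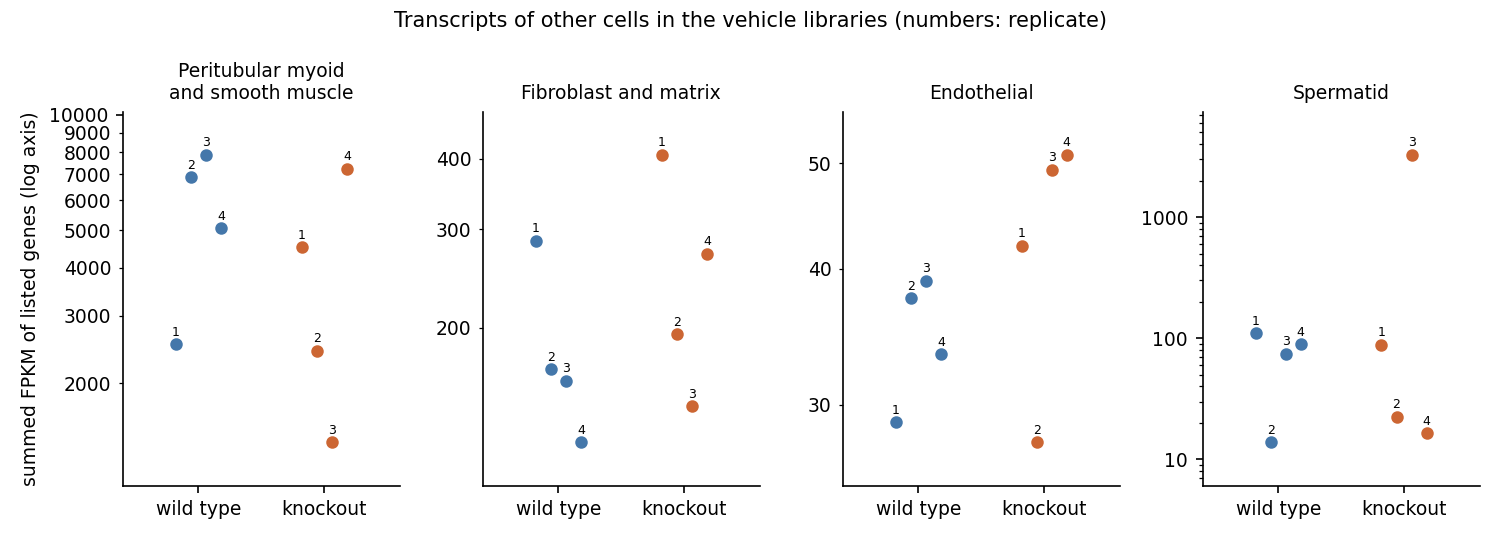
Summed FPKM (log axes) of listed marker transcripts of peritubular and smooth muscle, fibroblast and matrix, endothelial and spermatid cells in the 8 vehicle libraries, each point 1 library with its replicate number. The genotypes overlap for the peritubular list (wild type 2530 to 7880 FPKM, knockout 1400 to 7250 FPKM), and KO_vehicle 3 stands alone for spermatid transcripts at 3270 FPKM.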

How the data were processed

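The authors deposited FPKM values, as their table is named per the labels. Per the submitters' processing notes, the tools were edgeR 4.0.14, STAR 2.7.10a and FastQC and the builds GRCm39 and mm10, without their roles. The read counter is not given in the sources used here, nor are the gene lengths or any scaling between libraries. RNA was extracted with the PicoPure kit and libraries were stranded polyA libraries, per the labels' protocols. Columns were matched to samples by the column names in the labels, and 96.3% of the 16383 symbols to GENCODE M21 on GRCm38, from which identifiers and positions come.

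Differences were tested on log2(FPKM + 0.5), a scale that understates changes of scarce genes, using limma 3.58.1 (R 4.3.3) with 1 mean per group over all 16 libraries, a variance trend, and Benjamini-Hochberg adjustment at 0.05. Genes under 1 FPKM in all but 3 or fewer libraries (3476) were left out. Differences of single values were tested with two-sided exact permutation tests. The script was tested on simulated data. Divisors were recovered by finding the smallest library size that made low values whole reads; of values below 100 reads, 93.0% to 94.3% then came within 0.1 of whole. Listed genes held 86.7% to 113% of the divisor, so it is not depth alone.

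The members, lists and rules were chosen with earlier results of these data known. The rule named 16 genes, the 10 genes in each direction with the smallest p among those not overlapping (predicted genes and pseudogenes by symbol left out), up to 4 members per list with the smallest p, and all Sprouty, Spred and ERK output genes. Genes near Spry4, Hnrnpk, markers of other cells and the genes separating both treatments were named after their values were seen. Alternatives covered the pseudocount, filter, scaling, library weights, library numbers, other-cell terms, the replicate block and each replicate left out. Same-numbered libraries did not deviate together (correlations -0.12, 0.09, -0.31 and -0.26), so the numbers were not used as pairs. No libraries were identical.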

Additional observations from a re-analysis of the deposited data

Results flagged for a closer look

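Of 140 groups of 4 libraries examined (70 named genes in each genotype under vehicle), 10 held a library whose gap to its nearest neighbour took more of the group's range than Dixon's 95% critical value; chance flags about 1 in 20 groups. KO_vehicle 4 was the far library 5 times, always high: Cdkn1a at 18.5 FPKM against 6.16 to 7.41 in the other knockout libraries, Dusp4 at 30.1 against 17.4 to 19.3, Dusp1 at 107 against 39.6 to 49.6, Klf2 at 153 against 31.3 to 42.3 and Glb1 at 11.2 against 9.02 to 9.32. That library also had the highest peritubular sum of the knockout, 7250 FPKM, and the part of these cells in the flags was not tested. KO_vehicle 3 was high for Piwil1, at 18.4 FPKM against 5.43 to 6.13, and for Chi3l1, at 1.72 against 1.36 to 1.40. KO_vehicle 2 was high for Ndufs6b, at 1.86 FPKM against 0.101 to 0.400. In wild type, WT_vehicle 3 was low for Spred1, at 14.6 FPKM against 16.8 to 16.9, and WT_vehicle 2 for Casp9, at 17.6 against 19.6 to 19.9.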

How the results depend on the processing

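In all 22 alternatives, 0 genes passed the adjusted threshold in the vehicle comparison. The Spry4 difference stayed below 0, from -1.16 to -0.84 with single libraries left out; without WT_vehicle 1, 2 or 3 its exact permutation p was 0.0571. The count at an unadjusted limma p under 0.05, 251 genes (158 higher, 93 lower), moved to 408 (281, 127) with no filter, 143 (91, 52) with at least 5 FPKM in 4 libraries, 514 (298 higher) with library quality weights, 504 (284, 220) with the peritubular and spermatid terms, 378 (112, 266) within library numbers 440 to 447, and 117 to 391 (64 to 284, 53 to 142) with single libraries left out, lowest without WT_vehicle 2 and highest without WT_vehicle 1. Within numbers 448 to 455 it was 261 (201, 60) and with the 8 vehicle libraries alone 307 (151, 156).

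With the replicate number as a block, 321 genes (190, 131) had an unadjusted p under 0.05, 0 passed the adjusted threshold and Spry4 was at -1.01. The labels share numbers without stating a pairing, and no library correlated best with its own number.

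Of 69 named genes followed through the alternatives, 55 kept their sign and 14 did not. Within library numbers 440 to 447, Gfra1 was 0.07, Zbtb16 0.04 and Phlda1 -0.12. Within 448 to 455, Neurog3 was -0.06, Sox3 0.03, Kit 0.12, Spry2 0.03, Spred1 0.00, Epha4 -0.04, Ier3 0.03 and Fosl1 0.04. With the peritubular and spermatid terms, Neurog3 was -0.02, Etv1 0.05 and Dusp5 0.03. Quantile normalization gave Sox3 0.00 and Zbtb16 0.09, library weights gave both 0.02, and the pseudocount of 0.1 gave Epha4 -0.01. With single libraries left out, the range was -0.12 to 0.33 for Neurog3, -0.10 to 0.05 for Sox3, -0.23 to 0.09 for Kit, -0.05 to 0.04 for Zbtb16, -0.28 to 0.13 for Etv1, -0.03 to 0.26 for Dusp4, -0.32 to 0.06 for Dusp5, -0.16 to 0.03 for Fosl1 and -0.14 to 0.22 for Epha4. Without WT_vehicle 4 and WT_PD 4, whose values carry more decimals (chosen after seeing the data), Epha4 was -0.07. The causes of these shifts were not tested. Medians of gene lists moved by less than the spread between replicates in 650 of 659 cases. Under 1 FPKM, at 23.4 to 36.3 reads per kilobase, counting error limits the scarce genes.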

Other observations

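Some genes outside the lists stood at separate levels across the 16 libraries, with a gap of at least 2 on the log2 scale and at least 3 libraries on each side; they were chosen for this pattern. There were 8 such genes, 4 of them annotated pseudogenes, where 2.91% of tested genes are. Gm15772, a processed pseudogene, was at 106 to 256 FPKM in 10 libraries and at 0.991 to 3.18 FPKM in 6; all 4 wild-type and 1 of the knockout vehicle libraries were high (log2 difference -4.40, 95% interval -7.70 to -1.10). Vcp-rs, also a processed pseudogene, was at 2.96 to 3.94 FPKM in 8 libraries and at 41.9 to 91.1 FPKM in the other 8, with 0 wild-type and 3 knockout vehicle libraries high (2.82, 95% interval 0.34 to 5.30). The others were Rps2-ps13, Rpsa-ps10, Eno1b, Gdpd3, Rnf26rt and Myo7a. Pseudogenes can share reads with their parent genes, so these levels are uncertain.

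Of 12 listed protein-coding genes of the mitochondrial genome, 7 were at 110 to 11400 FPKM in the vehicle libraries. The other 5, mt-Co2, mt-Atp8, mt-Atp6, mt-Co3 and mt-Nd4l, were at 0.117 to 6.20 FPKM, so their genotype differences rest on few reads.

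Nr4a3, an orphan nuclear receptor outside the immediate early list, was at 19.5, 40.7, 30.3 and 23.6 FPKM in wild type and at 2.42, 16.9, 6.68 and 25.7 FPKM in the knockout (-1.50, SE 0.77). Crem, a factor of cyclic AMP signalling, was at 7.33, 14.1, 7.35 and 7.00 FPKM in wild type and at 2.63, 5.30, 4.31 and 5.68 FPKM in the knockout, without overlap (-0.91, SE 0.42, 95% interval -1.80 to -0.02). The noncoding gene 1700016P03Rik, which holds Mir132, was at 9.80, 15, 8.88 and 7.39 FPKM in wild type and at 2.31, 2.42, 2.88 and 8.09 FPKM in the knockout (-1.41, SE 0.39, 95% interval -2.23 to -0.58). These 3 were picked after their values were seen, and none passed the adjusted threshold.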
